A study of Homo sapiens with 9 samples.

Results

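Deep intronic MSI1 iCLIP sites are single-nucleotide positions inside introns, far from any exon, that were listed by iCLIP of the RNA-binding protein Musashi-1 (MSI1). The method aims to recover RNA crosslinked to the protein, and contact with MSI1 was not shown for each listed position. A site was taken where the same chromosome, start and strand appeared in at least 2 of the 3 deposited iCLIP lists, inside a gene on the same strand, outside every same-strand exon and more than 500 nt from every exon edge of that gene. This rule found 19181 sites of 42985 in at least 2 lists (44.6%), in 6797 introns of 4305 genes. Exons held 16811 of the 42985, antisense positions 5527, introns within 500 nt of an exon 1456 and positions outside genes 10. The members were chosen by the iCLIP lists themselves, that is by a position's presence in them and its distance from exons, so their number, place and p-values are given as a description, with no test. The gene and exon counts from RNA-seq played no part in the choice.

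The study used U251, an established human glioblastoma cell line, to relate MSI1 binding to expression and splicing changes after loss of MSI1. The 3 iCLIP libraries came from wild-type U251 cells and a monoclonal antibody against MSI1, and the 6 RNA-seq libraries from 3 wild-type control samples and 3 samples with MSI1 knocked down, replicates 1 to 3 in each group. The labels do not name the knockdown agent, and no iCLIP sample of knockdown cells or of a control antibody was analysed here. They state that 3 biological replicates were combined before sequencing, so p-values measure the spread between these libraries, which may be technical. All positions are on hg18.

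MSI1 is a neural stem cell protein with a pair of RNA-recognition motifs, and UAG is the core of the sequence it prefers. It is best known for binding 3′ untranslated regions in the cytoplasm and altering translation or stability. Introns are largely removed in the nucleus, and some hold stable small RNAs of their own. In iCLIP, reverse transcription stops at the crosslinked base, which places a site to the nucleotide.

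The densest deep intronic stretches include copies of small nuclear RNAs, and their sequences are shown first because sites in all 3 lists were frequent in them. GENCODE 29 (GRCh38) gave the RNA genes. A cluster and an RNA gene were compared only by their distance from the 5′ end of an intron whose length is identical in both annotations, with no conversion of coordinates. Sequences are the GENCODE transcripts, 5′ to 3′, and capitals mark the bases listed as sites in at least 2 lists. The first pair are U1 copies in intron 7 of PHACTR1 and in SLC25A43, 95.7% and 95.1% identical to U1 (RNU1-1).
RNU1-11P in PHACTR1: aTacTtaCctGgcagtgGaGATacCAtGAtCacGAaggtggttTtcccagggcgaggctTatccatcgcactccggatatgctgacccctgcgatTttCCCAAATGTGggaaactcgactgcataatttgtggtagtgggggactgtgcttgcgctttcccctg
RNU1-67P in SLC25A43: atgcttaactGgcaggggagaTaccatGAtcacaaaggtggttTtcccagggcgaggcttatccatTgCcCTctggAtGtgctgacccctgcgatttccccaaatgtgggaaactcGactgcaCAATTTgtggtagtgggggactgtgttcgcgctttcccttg
The next pair are U2 copies in C13orf18 and C14orf129, 93.7% and 85.4% identical to U2 (RNU2-1).
RNU2-6P in C13orf18: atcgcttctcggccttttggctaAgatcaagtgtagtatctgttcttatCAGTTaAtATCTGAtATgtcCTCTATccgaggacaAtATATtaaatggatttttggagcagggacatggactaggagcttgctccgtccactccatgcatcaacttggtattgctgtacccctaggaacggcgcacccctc
RNU2-33P in C14orf129: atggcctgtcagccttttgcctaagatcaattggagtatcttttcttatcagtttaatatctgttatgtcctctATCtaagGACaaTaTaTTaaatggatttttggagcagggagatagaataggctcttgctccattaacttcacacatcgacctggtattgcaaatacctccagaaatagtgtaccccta
The last 3 are copies of 7SK, the RNA that holds the elongation factor P-TEFb inactive, shown from base 201 to the 3′ end.
RN7SKP292 in TBC1D14: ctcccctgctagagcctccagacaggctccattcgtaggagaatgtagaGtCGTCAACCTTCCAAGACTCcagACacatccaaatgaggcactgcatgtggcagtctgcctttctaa
RN7SKP118 in KCTD19: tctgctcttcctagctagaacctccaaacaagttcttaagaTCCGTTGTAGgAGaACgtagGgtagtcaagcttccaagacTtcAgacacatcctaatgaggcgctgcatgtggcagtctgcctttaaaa
RN7SKP187 in ZNF277: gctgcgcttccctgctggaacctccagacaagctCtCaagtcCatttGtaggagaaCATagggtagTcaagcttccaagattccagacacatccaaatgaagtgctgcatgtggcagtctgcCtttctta

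In all 3 of these 7SK copies the sites lay in the 3′ part of the RNA, from base 250 to 275 in RN7SKP292, 242 to 285 in RN7SKP118 and 235 to 323 in RN7SKP187. RN7SKP292 held 22 sites, 18 of them in all 3 lists. RN7SKP118 held 17 sites with 8 in all 3 lists, and RN7SKP187 held 9 with 5. In the U2 copies the capitals ran from base 24 to 90 in RNU2-6P (26 sites, 15 in all 3 lists) and from 75 to 92 in RNU2-33P (10 sites, 3 in all 3 lists). RNU1-11P held 28 sites, 19 of them in all 3 lists, from base 2 to 108, and RNU1-67P held 18 from base 11 to 129. The 7SK copies are 88.3%, 89.7% and 90.3% identical to RN7SK. The reads and the rule for reads that map to several places were not used here. Whether these positions were read from the intronic copy or from the expressed parent RNA was not tested.

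Such copies were rare among the sites as a whole. In introns of identical length, 308 of 16550 sites (1.86%) fell inside a structural RNA gene, which covers 0.0204% of the 512.792 Mb of deep bases there. The share was 0.307% for sites alone (39 of 12690), 3.77% in clusters of 2 to 9 sites (123 of 3264) and 24.5% in clusters of 10 or more (146 of 596). It was 13.2% for sites in all 3 lists (137 of 1034). By family, U1 copies held 76 sites in 7 host genes, U2 copies 58 in 8, 7SK copies 51 in 4, U6 copies 40 in 19 and Y RNA copies 27 in 14. SNORA73A, a small nucleolar RNA encoded in an intron of SNHG3 and no pseudogene, held 21. These families were looked for after the clusters had been seen.

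Agreement between lists was low per position and sharp in place. The lists held 1746795, 145718 and 208722 positions, and deep introns took 75.8%, 63.1% and 60.7% of them. Of 1521510 deep intronic positions in any list, 1.26% were in at least 2 lists, against 5.60% of exonic, 5.30% of antisense and 1.14% of near-exon intronic positions. Lists 1 and 3 alone shared 12044 of the members, lists 1 and 2 shared 3509, lists 2 and 3 shared 2361, and 1267 (6.61%) were in all 3. List 1 is far longer than the others and took part in most of these pairs. Its weight shows when it is left out: 3628 sites remain.

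Pairs of positions from different lists were counted at each offset from 0 to 50 nt on either side. Lists 2 and 3 had 3628 pairs at offset 0 against a mean of 177 ± 28.6 (SD over offsets) at 20 to 50 nt, a ratio of 20.5. The ratio was 8.23 for lists 1 and 3 (13311 against 1618) and 5.17 for lists 1 and 2 (4776 against 924). At 1 nt away the ratios had dropped to 13.1, 2.97 and 3.54. With p at most 0.05 in each list they were 17.6, 4.51 and 5.86 at offset 0.

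**Figure D1:**
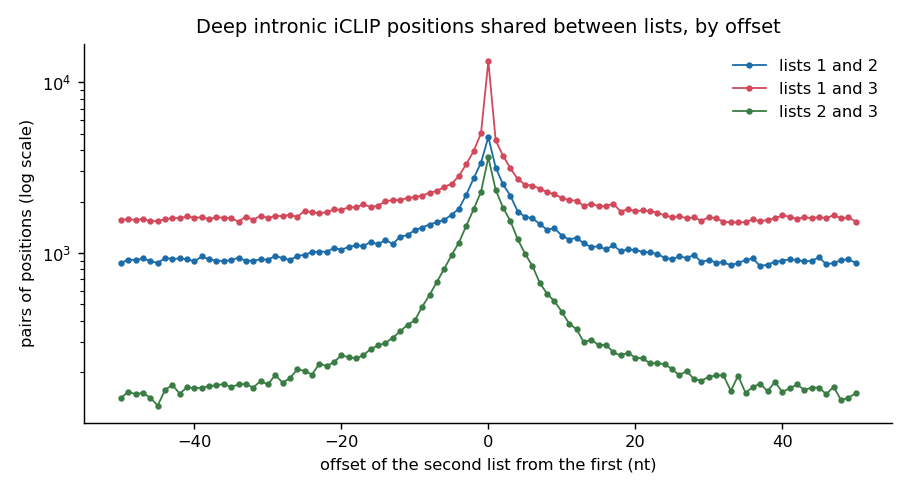
Number of pairs of deep intronic positions (log scale) by the offset in nt of the second list from the first, for each pair of the 3 iCLIP lists. Each curve peaks at offset 0, at 13311 pairs for lists 1 and 3, 4776 for lists 1 and 2 and 3628 for lists 2 and 3, and falls steeply within the first nucleotides on either side.

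The opposite strand of the same introns gave a background. Over 937 Mb of deep intron with no gene on the other strand, sites in at least 2 lists numbered 20.3 per Mb on the gene's strand and 4.87 per Mb on the other, a ratio of 4.17. Single lists gave 28.1, 6.11 and 7.91. The ratio was 1.48 for sites in all 3 lists (1.34 against 0.904 per Mb) and 2.54 for sites with p at most 0.05 in at least 2 lists (0.257 against 0.101 per Mb). These stricter sets thus had lower ratios than the sites as a whole. Beyond 5000 nt from exons the ratio for sites in at least 2 lists was 4.96, and the stricter sets had lower ratios there, 1.21 for sites in all 3 lists and 1.39 for p at most 0.05.

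The deposited p-values of the members were mostly high. Their medians were 0.612, 0.569 and 0.435 in lists 1, 2 and 3, and 31.5%, 21.2% and 28.2% of the members in each list carried the value 1, the highest possible. Only 245 sites, in 58 genes, had p at most 0.05 in at least 2 lists, and 174 of these (71.0%) lay in clusters of 10 or more sites. By the largest of the 3 p-values, the 5 leading sites were 3 in PDE3A, 1 in LOC100130581 and 1 in C13orf18. The leading PDE3A site, at position 20595647 of chromosome 12, carried a deposited value of 4.53e-15 in the first list and is listed at 0 in the others. The C13orf18 site lies in the U2 copy shown above.

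Sites lay deep in long introns. The median distance to the nearest exon was 8165 nt (interquartile range 2679 to 23016, highest 384420). With each intron counted once, the 6797 introns with a site had a median length of 22275 nt, against 3251 nt for all introns with a part more than 500 nt from exons. Compared base for base within the host genes, which were chosen for holding a site, sites were slightly nearer to exons: 61.9% lay more than 5000 nt away against 66.4% of deep bases, and 45.5% of sites in all 3 lists did. Over deep introns of all genes, where no gene lies on the other strand, density was instead higher beyond 5000 nt, 22.0 against 20.3 per Mb. For sites in all 3 lists it was lower there, 1.08 against 1.34 per Mb. The 10 nt just beyond the 500 nt limit held 22 sites, and the 10 nt just short of it held 23 that the rule left out. First introns held 32.4% of sites and 23.4% of the deep bases of host genes, and last introns 5.54% and 5.95%.

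Along the intron, sites thinned towards the 3′ end. With the deep part of each intron cut into 5 equal parts, the 5′-most held 27.8% of sites, and the next ones 21.7%, 19.3%, 16.7% and 14.6%. Leaving out clusters of 10 or more sites and PMEPA1 gave 27.4% in the 5′-most and 13.9% in the 3′-most part. Sites in all 3 lists did not follow this order, with 26.7%, 17.3%, 17.6%, 17.2% and 21.3%.

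**Figure D2:**
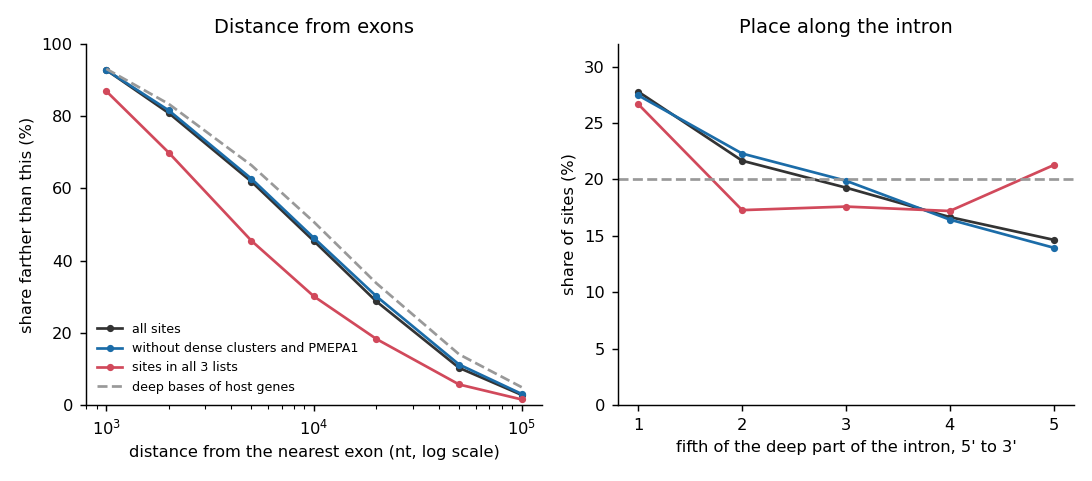
Left, share of sites farther from the nearest exon than the distance on the x axis (nt, log scale), with the deep bases of host genes as a dashed line. Right, share of sites in each of 5 equal parts of the deep intron from 5′ to 3′, with the even share of 20% dashed. Among all sites it falls from 27.8% to 14.6%, and sites in all 3 lists (red) turn up to 21.3% in the last part.

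Most sites stood alone. Joined where neighbours were at most 30 nt apart, they formed 15863 clusters, of which 14525 were single sites (75.7% of members). Clusters of 10 or more numbered 43 and held 886 sites (4.62%), and 40.2% of those sites were in all 3 lists against 2.13% of sites alone. PDE3A, a cyclic nucleotide phosphodiesterase, had 84 sites within 108 nt of its 186415-nt first intron (chr12:20595628-20595735). The 100 nt on either side of that stretch held 3 positions of list 1 and 0 of the others, so its edges were abrupt. HFM1, a meiotic helicase, had 81 sites in 315 nt (chr1:91625424-91625738). LOC100130581 had 26 sites in 27 nt (chr17:38820265-38820291), each in all 3 lists.

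Clusters also recurred within 1 intron. The noncoding NCRNA00164 had 9 clusters within 1493 nt, with 96 of their sites in all 3 lists, and its 287 sites all lay 1352 to 4330 nt from the 5′ end of an intron of 95576 nt. For this gene, GENCODE has a 5.8S ribosomal RNA copy on the same strand. No GENCODE intron of the gene has that length, so the place of the copy was not compared with the clusters. PDE3A and HFM1 held none of these copies, and LOC100130581 was not matched in GENCODE. Of 24 genes with such a cluster that were matched in GENCODE, 12 held a copy of 7SK, U1, U2, 5.8S, mitochondrial 16S or SNORA73 on the same strand (50.0%), against 61 of 4183 other hosts (1.46%). Those families were picked from what the clusters held. Over all structural RNA genes, U6, 5S, 7SL and Y RNA copies included, the counts were 13 of 24 (54.2%) and 647 of 4183 (15.5%). Of 32 such clusters in introns of identical length, 10 overlapped a structural RNA gene.

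PMEPA1, which encodes a membrane protein that limits TGF-beta signalling, held the most sites and held them in another way. It had 830 sites (4.31% of all), 822 of them in intron 3 of 5, which spans 49776 nt (chr20:55668160-55717935). They ran from 610 to 48270 nt from the 5′ end of the intron with a median gap of 29 nt and a largest gap of 563 nt, and 30 of the 830 were in all 3 lists. List 1 alone covered 30.8% of the deep bases of that intron, list 3 1.91% and list 2 0.748%. A high density in list 1 makes coincidence with another list more likely at any base, and its part in this count was not tested. TTYH3, of a chloride channel family, was alike on a smaller scale, with 115 sites in a 14574-nt first intron of which list 1 covered 26.7%.

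**Figure D3:**
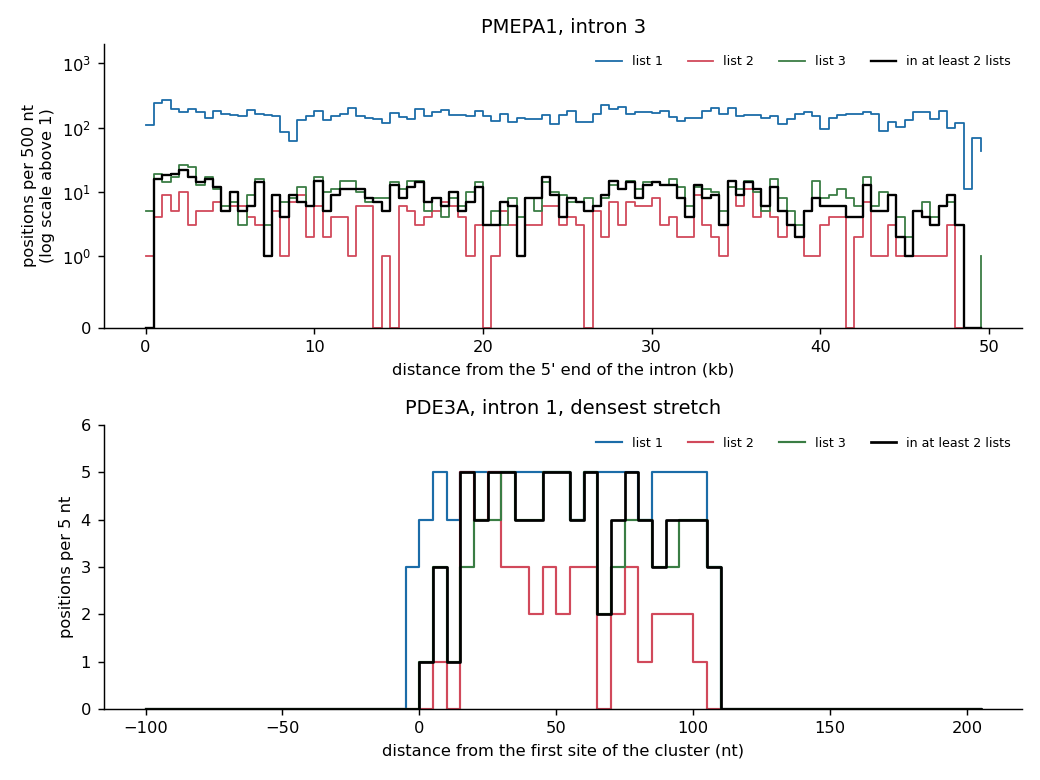
Top, positions per 500 nt of each list and of sites in at least 2 lists along intron 3 of PMEPA1 (kb from its 5′ end, log scale above 1), spread over nearly the whole intron. Bottom, positions per 5 nt across the PDE3A cluster of 84 sites (nt from its first site), where all lists rise and end sharply, with 3 positions of list 1 and 0 of the others outside the 108 nt.

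Among other genes with many sites, FRMD5, a FERM domain protein, held 333 in its 270643-nt first intron, of which 33.9% and 36.3% lay in the first and second of 5 equal parts. CDH4, the cell adhesion protein R-cadherin, held 158 of its 161 in intron 2, with 60.1% in the 5′-most part. MAD1L1, of the spindle checkpoint, held 187, CTBP2, a transcriptional corepressor, and GLIS3, a zinc finger factor, 134 each, and IGF1R, the IGF-1 receptor, 115. MSI2, the paralogue of MSI1, held 87, and MSI1 itself held 0 in 13.8 kb of deep intron. Per kb of deep intron, among genes with at least 10 sites, the highest values included 21.1 for SNHG3, 15.3 for PMEPA1, 5.82 for TTYH3, 3.35 for LOC100130581, 2.88 for C14orf129, 2.81 for NCRNA00164, 2.72 for SLC16A3, 2.40 for FAM20C and 2.21 for LOC400931. Host genes had a median of 2 sites. The 10 richest held 12.5% of all and 1902 genes held 1 each.

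Density rose with expression in the single lists and for the shared sites. Tested genes were ranked by control CPM (reads of a gene scaled to library size) per exonic kb and cut into 5 equal classes. From the lowest to the highest class, sites rose from 8.14 through 13.7, 22.5 and 37.0 to 64.6 per Mb of deep intron. List 1 went from 393 to 3962, list 2 from 31.7 to 276 and list 3 from 43.3 to 381 per Mb. Across 8485 genes with at least 10 kb of deep intron, Spearman's rho between control expression and density was 0.57, 0.53 and 0.53 in lists 1, 2 and 3, and 0.25 for sites in at least 2 lists. Of all tested genes with a deep intron only 31.1% held such a site, so many densities behind the 0.25 are tied at 0. The part of these ties in the lower rho was not tested. Between lists, gene densities gave rho of 0.73 to 0.80 over 10880 genes. Genes are not independent replicates and share these libraries, so no p is given. Single hosts departed from this order: NCRNA00164 had 3, 1 and 0 reads in the control libraries beside its 287 sites, and PDE3A had 0.553, 0.797 and 0.622 CPM beside its 87.

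**Figure D4:**
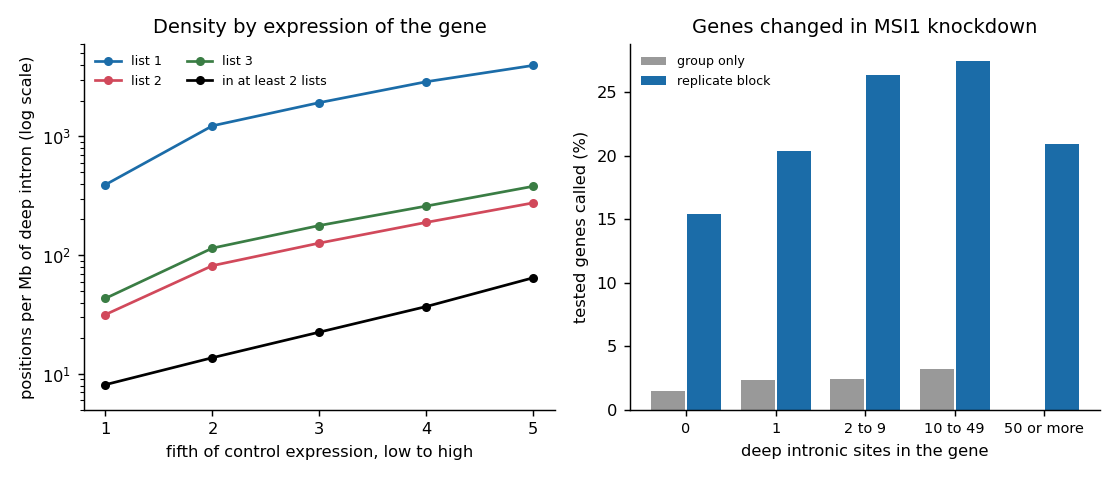
Left, iCLIP positions per Mb of deep intron (log scale) in 5 classes of control expression from low to high, rising in each list and from 8.14 to 64.6 for sites in at least 2 lists. Right, share of tested genes called in MSI1 knockdown by number of deep intronic sites, in the fit with group only (grey, 1.45% with no site, 0 of 43 genes with 50 or more) and with replicates as a block (blue, 15.4% and 20.9%). Over all genes tested the shares were 1.67% and 17.3%.

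RNA-seq gave the test that the choice of sites did not use. Libraries held 32919299 to 47277016 counts in genes, and control replicate 3 stood apart on the first principal component (80.6 against -40.9 to 10.4, 62.5% of variance). The MSI1 transcript had 16.05, 17.7 and 7.59 CPM in control replicates 1 to 3 and 3.15, 5.11 and 2.26 in knockdown replicates 1 to 3. The groups do not overlap. Its log2 fold change was -1.97 ± 0.42 (SE), with an adjusted p of 0.0699 in edgeR's quasi-likelihood test and 0.00279 with replicate number as a block. Glial and glioma markers summed to 7265 to 8196 CPM in control and 7103 to 7890 in knockdown libraries, and 15 measured markers of other cell types to 23.6 to 32.8 and 35.9 to 45.0 CPM, with CD3E at 0.

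Of 4305 host genes, 3886 passed the filter on low counts, and edgeR's quasi-likelihood test called 94 (2.42%) at an adjusted p below 0.05. Over all 13856 genes tested it called 1.67%. Higher were 44 hosts (1.13%, all genes 0.772%) and lower were 50 (1.29%, all genes 0.902%). With DESeq2's size factors 75 hosts were called (1.93%, all genes 1.38%), 44 higher and 31 lower. The 94 called hosts carried a median of 2 sites, and 39 of them 1. With replicate number as a block 925 hosts were called (23.8%, all genes 17.3%), 348 higher (8.96%, all genes 7.04%) and 577 lower (14.8%, all genes 10.3%). The median log2 fold change was -0.08 for hosts, -0.03 for genes with a deep intron and no site and -0.04 for all genes. Called hosts without the block numbered 382 without control replicate 3 (9.77%, all genes 7.31%). Without any other library they numbered 0 to 4 (at most 0.103%, all genes at most 0.0714%).

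Hosts are longer and more highly expressed than genes without a site. Their median length was 89.6 kb against 21.9 kb, and their median control level 11.96 against 7.23 CPM per exonic kb. Median control levels of hosts were also higher within length classes, 14.8 against 8.25 CPM per exonic kb under 50 kb and 14.0 against 5.31 from 50 to 150 kb. The share called was 1.64% of hosts and 1.25% of genes without a site under 50 kb, and 2.497% and 2.20% from 50 to 150 kb. Above 150 kb it was 3.06% and 2.11%, the latter 6 of 284 genes. From 50 to 150 kb higher calls alone went the other way, with 1.22% of hosts and 1.36% of genes without a site. In the blocked fit the shares called in either direction were 20.6% and 13.8%, 23.9% and 21.9%, and 26.8% and 20.4%, so the gap was narrow from 50 to 150 kb only. In that fit the lower calls above 150 kb were 17.99% of 1145 hosts and 11.6% of 284 genes without a site, whose median control levels were 6.85 and 0.783 CPM per exonic kb. The difference between hosts and other genes was given no test of its own, and the part of length and expression in it was not tested.

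Shares called were also read by number of sites, beside 1.67% of all genes tested and 17.3% in the blocked fit. They were 2.33% at 1 site, 2.43% at 2 to 9, 3.25% at 10 to 49 and 0 of 43 genes at 50 or more. In the blocked fit they were 20.3%, 26.4%, 27.4% and 20.9%. With 43 genes, 0 calls cannot be told apart from a share near 1.67%. Without the block, none of the 10 genes with the most sites was called, and NCRNA00164 did not pass the filter. PMEPA1 had 300.1, 235 and 162 CPM in control replicates 1 to 3 and 256, 203 and 138 in knockdown, so the groups overlap, while the knockdown value is the lower in each of the 3 same-numbered pairs (log2 fold change -0.22 ± 0.29, adjusted p = 0.809, blocked 0.0664, edgeR). FRMD5 had 58.8, 55.5 and 48.4 against 54.9, 55.0 and 44.2 CPM, also overlapping and lower in each pair (adjusted p = 0.887, blocked 0.547, edgeR). CTBP2 lay at 112, 111 and 103 against 144, 143 and 144 CPM, with all knockdown values above all controls (adjusted p = 0.141, blocked 0.0168, edgeR). GLIS3 lay at 251.3, 241 and 232 against 173, 156 and 155 CPM, all lower (adjusted p = 0.0631, blocked 0.00495, edgeR). TTYH3 lay at 909, 979 and 192 against 1062, 1542 and 756 CPM, with control replicate 3 far below the others, overlapping groups and a higher knockdown value in each pair (adjusted p = 0.655, blocked 0.0992, edgeR).

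The 6 largest called rises were in hosts with 1 to 14 sites, beside a median of 2 over all host genes. ACLY, which makes cytosolic acetyl-CoA, had 1 site and rose from 94.0, 88.1 and 59.9 to 587, 635 and 509 CPM (log2 fold change 2.84 ± 0.21, edgeR adjusted p = 0.00485). LPP, a LIM protein of focal adhesions, had 14 sites in 5 introns and rose from 66.9, 70.5 and 83.8 to 327, 297 and 346 CPM (2.13 ± 0.14, adjusted p = 0.00478). The septin SEPT10 (2 sites), the neuronal adhesion protein NEGR1 (7), the IP3 receptor ITPR1 (3) and C21orf45 (1) rose by 1.73 to 2.33 on the log2 scale. The knockdown values lay above the control values in each of these 6 genes.

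The largest called falls had 1 to 11 sites. WNT7B, a Wnt ligand, had 4 sites and went from 40.4, 46.7 and 22.9 to 7.28, 6.50 and 6.51 CPM (log2 fold change -2.44 ± 0.28, edgeR adjusted p = 0.0147). TULP4, of the tubby-like family, had 11 sites in 3 introns and went from 139, 136 and 129 to 39.2, 40.8 and 38.7 CPM (-1.77 ± 0.12, adjusted p = 0.00478). TMEM2, a cell-surface hyaluronidase (1 site), MTMR12 of the myotubularin family (2), RNF141, a RING finger protein (1), and the vesicle fusion ATPase NSF (1) had log2 fold changes of -1.97 to -1.54. The groups do not overlap in any of the 6. None of the 12 genes stayed called without knockdown replicate 1, 4 did without control replicate 1 and 4 without control replicate 2, and 2 did without knockdown replicate 2 or 3 in each case.

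**Figure D5:**
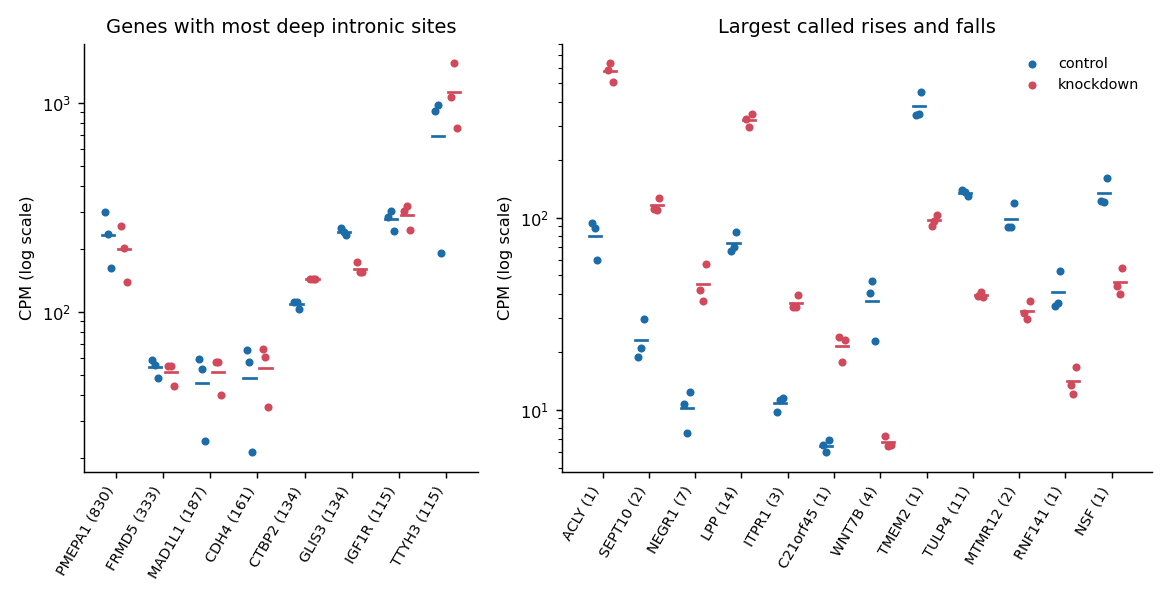
CPM (log scale) of each of the 3 control (blue) and 3 knockdown (red) libraries, with the group mean as a bar and the number of deep intronic sites in brackets. Left, 8 genes among the 10 with most sites, of which CTBP2 and GLIS3 have separate groups. Right, the 6 largest called rises and falls among hosts, whose sites number 1 to 14.

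Called hosts with more sites included SMAD3, the TGF-beta signal transducer, with 26. It had 417, 394 and 507 CPM in control and 188, 174 and 248 in knockdown libraries, which do not overlap (log2 fold change -1.11 ± 0.18, edgeR adjusted p = 0.0346). NRXN3, a presynaptic neurexin with 20 sites, rose from 15.6, 15.3 and 14.7 to 36.1, 47.1 and 37.5 CPM (1.40 ± 0.17, adjusted p = 0.0149). Of the other hosts with at least 10 sites, SLCO5A1 (34 sites) and TSC22D2 (11) rose, and the microtubule protein MAP1B (25), the adhesion protein CADM1 (13) and PTK2, the focal adhesion kinase (12), fell. With LPP and TULP4 these made 9 called genes of 320 tested with at least 10 sites (2.81%). That share is near the 2.42% of all tested hosts, beside 1.67% of all genes tested. SMAD3 and CADM1 were no longer called with DESeq2's size factors.

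Gene lists that fit the study were compared by counts, beside shares over all tested genes of 0.772% higher and 0.902% lower without the block and 7.04% higher and 10.3% lower with it. The lists were not matched to other genes in length or expression, and the part of either in their shares of hosts was not tested. Of genes with a deep intron, 25.3% were hosts, and of those that were also tested, 31.1%. Of integrin and focal adhesion genes, 28 of 42 were (66.7%), led by TNS3 (66 sites) and DOCK1 (51), and of these 28, LPP rose and ITGB1, the beta-1 integrin chain (3 sites), and PTK2 fell, with 7 higher and 3 lower in the blocked fit. Among cell-cell adhesion and junction genes 34 of 44 were hosts, 30 were tested and CADM1 fell, with 3 higher and 5 lower in the blocked fit. Among neural and synaptic adhesion genes 27 of 35 were hosts, led by the teneurins ODZ2 (95 sites) and ODZ3 (66), 20 were tested, and NEGR1, NRXN3 and the kainate receptor GRIK2 rose, with 5 higher and 1 lower in the blocked fit. Axon guidance genes had 28 hosts of 42, 27 of them tested, and the semaphorin receptor PLXNA2 fell, a call lost with DESeq2's size factors. The blocked fit had 4 of these higher and 4 lower.

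Extracellular matrix genes had 28 hosts of 42, and 0 of 26 tested were called by edgeR without the block, while 8 were higher and 1 was lower with it. Genes that are very long or at common fragile sites were hosts in 34 of 34 cases, with 631 sites and 0 of 30 tested called, and 2 higher and 6 lower with the block. Musashi targets from earlier literature had 14 hosts of 22, among them MSI2, CD44 (42 sites) and SMAD3, and SMAD3 was the 1 called of 14 tested, with 1 higher and 4 lower in the blocked fit. RNA-binding and splicing factors had 22 hosts of 31, led by MBNL1 (21) and RBMS1 (14), with 0 of 22 called, and 3 higher and 2 lower with the block. Glial and glioma markers had 3 hosts of 8 and markers of other cell types 0 of 13. Median log2 fold changes of tested hosts ran from -0.25 for Musashi targets and -0.13 for very long genes to 0.17 for integrin and 0.21 for matrix genes (glial markers, with 3 hosts, -0.35).

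Splicing beside the sites was read from exon counts. Exons next to an intron with a deep site numbered 9549 of 123109 tested. The diffSpliceDGE test in edgeR, which compares each exon's change with that of its gene, called 0 of the 9549, and 43 had an unadjusted p below 0.05 (0.450%, against 0.214% of all exons). With no change at all, a share near 0.05 would be reached. Both shares lie far below it, so 0 calls here cannot show that splicing was unchanged. Over all exons the share called was 0.0%. With the block the test called 2 of the 9549 against 0.00812% of all exons, and both are named here after their values were seen. An exon of the stress kinase ZAK (chr2:173805294-173805433), beside an intron with 1 site, took 1.56%, 1.29% and 1.71% of its gene's exon counts in control and 0.640%, 0.593% and 0.529% in knockdown libraries (blocked adjusted p = 0.00535, edgeR). An exon of the tropomyosin gene TPM1 (chr15:61127689-61127959), beside introns with 7 sites, took 0.300%, 0.521% and 0.140% in control and 0.724%, 1.03% and 0.512% in knockdown libraries (blocked adjusted p = 0.00535, edgeR). The groups do not overlap for ZAK, and for TPM1 they do. Beside introns with at least 5 deep sites, 0 of 1045 exons were called with or without the block, and 8 had an unadjusted p below 0.05 without it (0.766%, all exons 0.214%). With the block 57 did (5.45%, all exons 1.97%), and 311 of the 9549 (3.26%). The 1.97% also lies below 0.05, and no test compared these shares.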

How the data were processed

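Per the submitters' processing notes, the build is hg18. The authors deposited iCLIP lists with a p-value for each single-nucleotide position, and read counts per gene and per exon for each RNA-seq library. The aligner, the peak test and the strand setting were not stated in the labels or the files. No gene's count exceeds the sum of its exon counts. Sites were classified against the deposited gene and exon intervals with no p filter. Genes (20848 in the table) were filtered with filterByExpr, scaled by TMM and tested with edgeR 4.0.16 (R 4.3.3) by group, with Benjamini-Hochberg adjustment at 0.05. Exons were tested with diffSpliceDGE. DESeq2 1.42.0 was an alternative. Replicate numbers pair the RNA-seq samples: same-numbered controls and knockdowns deviate together (r = 0.32, 0.73 and 0.75), so blocked values are given. Control replicate 1 deviated more with knockdown replicate 2 (r = 0.49) than with its own number. Tests were checked on simulated data.

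The members, gene lists and tests were chosen with earlier results of these data known. The genes named are MSI1 and MSI2, the 10 with most sites, the 10 with most sites per kb, the 6 largest called rises and falls at a mean log2 CPM of at least 2 with separate groups, up to 3 hosts of each of 10 lists, the introns and sites that lead and the called exons. A motif search around sites was planned only for an hg18 sequence, which was not used here. Some results are not reported here.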

Additional observations from a re-analysis of the deposited data

How the results depend on the processing

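The number of sites followed the rule most. It was 1267 for sites in all 3 lists, 245 and 98 for p at most 0.05 and 0.01 in at least 2 lists, 11892 beyond 5000 nt, and 3628 to 13311 without 1 iCLIP list, with 588, 58, 25, 2451 and 1588 to 3551 host genes. Merging within 10 nt, a 1000 nt distance, exons of any gene, and leaving out dense clusters (added after seeing the data) changed neither count by more than 1.5 times. List 1 alone gave a strand ratio of 28.1. Called hosts numbered 94 (2.42%, all genes 1.67%), but 925 with the replicate block (23.8%, all genes 17.3%) and 257 with DESeq2 (6.57%, all genes 5.06%). Without 1 library they numbered 0 to 382, at most 9.77% of hosts beside 7.31% of all genes. They were 9, 10 and 2 for hosts with at least 10 sites, with sites in all 3 lists and with p at most 0.05 in at least 2 lists. Those were 2.81%, 2.10% and 4.08% of such hosts. The replicate block gave 340, 500, 76 and 9 called genes at 1, 2 to 9, 10 to 49 and 50 or more sites. These were 20.3%, 26.4%, 27.4% and 20.9% of the genes tested. With the block 2 exons were called (0.0209%, all exons 0.00812%). Log2 fold changes that turned, none of them called, were those of SNHG3 (0.0113 with DESeq2's size factors, 0.00703 with DESeq2, 0.0110 unfiltered, and -0.0749 to 0.103 without 1 library) and, without 1 library, PMEPA1 (-0.384 to 0.0370), FRMD5 (-0.130 to 0.0716), MAD1L1 (-0.0706 to 0.415), CDH4 (-0.132 to 0.450), IGF1R (-0.00904 to 0.222) and C14orf129 (-0.349 to 0.172). The cause was not tested. No motif search was run.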

Other observations

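Chromosome 20 had 56.9 deep intronic sites per Mb of deep intron, but 18.1 without PMEPA1, which holds most of them. Chromosome 21 followed with 34.1 and chromosome 15, where FRMD5 and IGF1R lie, with 32.8. Genes that did not pass the RNA-seq filter also held sites: 419 hosts with 1232 sites, at 5.65 per Mb. Near exons, sites in at least 2 lists numbered 7.25 per Mb of intron within 100 nt and 13.04 per Mb at 900 to 1000 nt, against 20.3 per Mb over the deep intron as a whole and 22.0 beyond 5000 nt, both where no gene lies on the other strand.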
